A study of Rattus norvegicus with 30 samples.

Results

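The effect of test ischaemia in rat hearts preconditioned by ischaemia was read by setting 5 left ventricle samples labelled as ischemic preconditioning (IPC) against 5 labelled as the trigger of ischemic preconditioning (IPC_TRI). These 10 arrays, of 30 in the study, were taken by the group names in their titles, and all 8740 probe sets other than the 59 control probe sets of the array's maker were eligible. The other 20 arrays were control hearts (CTL), hearts with ischemia (ISCH), hearts with anesthetic preconditioning (APC) and the trigger of that preconditioning (APC_TRI), 5 arrays each. The labels say that each protocol had 5 biological replicates and that total RNA came from rat left ventricle. They name no strain, sex, age, anaesthetic, length of ischaemia or time of collection. They also do not state that the IPC or the APC hearts went through a later test ischaemia. For both, that reading rests on the meaning of a trigger group.

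Ischaemic preconditioning is the protection of heart muscle by brief bouts of ischaemia that precede a long, damaging one, the test ischaemia. The trigger is the brief stimulus alone. A heart that is reperfused after ischaemia is known for a fast wave of transcription of stress genes, which encode transcription factors such as Jun and Fos, chaperones that refold damaged proteins, and signals to the immune system that are controlled by NF-kappaB and by interferons.

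Values below are deposited signals, which are linear fluorescence intensities of a probe set scaled by the authors to a common array mean. A change is a difference of means on the scale of log2(signal + 16) after quantile normalization, with n = 5 arrays per group. It is given with its standard error (SE) from limma's fit of all 30 arrays. That SE rests on a spread shared by the 6 groups and is not the spread of the groups compared alone. The dimmest 40% of probe sets by mean were not tested, so that 5244 probe sets were tested, and they stood for 3155 genes with 1 symbol each. A gene rose or fell if limma's test gave it an adjusted p under 0.05 over all 5244 probe sets. On this log scale the change of a dim gene is understated, and with 5 arrays per group small changes could be missed.

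The 2 groups differed in array quality as well as in protocol. The beta-actin 3′ to 5′ log2 ratio, a measure that moves with RNA integrity and labelling, was 0.34 ± 0.26 (SD, n = 5) in IPC and -0.46 ± 0.37 in IPC_TRI (2-sided exact permutation test, adjusted p = 0.0265 over 5 measures). The GAPDH 3′ to 5′ log2 ratio ran the other way, at -0.02 ± 0.02 (SD, n = 5) in IPC and 0.13 ± 0.10 in IPC_TRI (exact permutation adjusted p = 0.0198), so the ratios of the 2 control genes did not shift in 1 direction. Of these 2 ratios, that of beta-actin alone was used as a covariate below. The brightest 1% of probe sets held 30.3% ± 2.52 (SD, n = 5) of the signal in IPC and 37.2% ± 2.40 in IPC_TRI (exact permutation adjusted p = 0.0198, from the smallest p that 5 against 5 arrays allow). The mean correlation of an array with the others of its group was 0.959 in IPC and 0.884 in IPC_TRI, where array 5 stood lowest at 0.853. Among the other groups, APC_TRI was nearest to IPC_TRI in the beta-actin ratio, at -0.36 ± 0.28 (SD, n = 5). Of 13 cardiomyocyte markers 10 were measured and 0 of their values were 0, which held for all genes tested and so does not show presence. Their mean log2 signal after normalization ran from 14.6 to 14.8 on the IPC_TRI arrays and from 14.7 to 14.8 on the IPC arrays. Over all genes tested it ran from 8.68 to 8.81 and from 8.80 to 8.82.

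**Figure D1:**
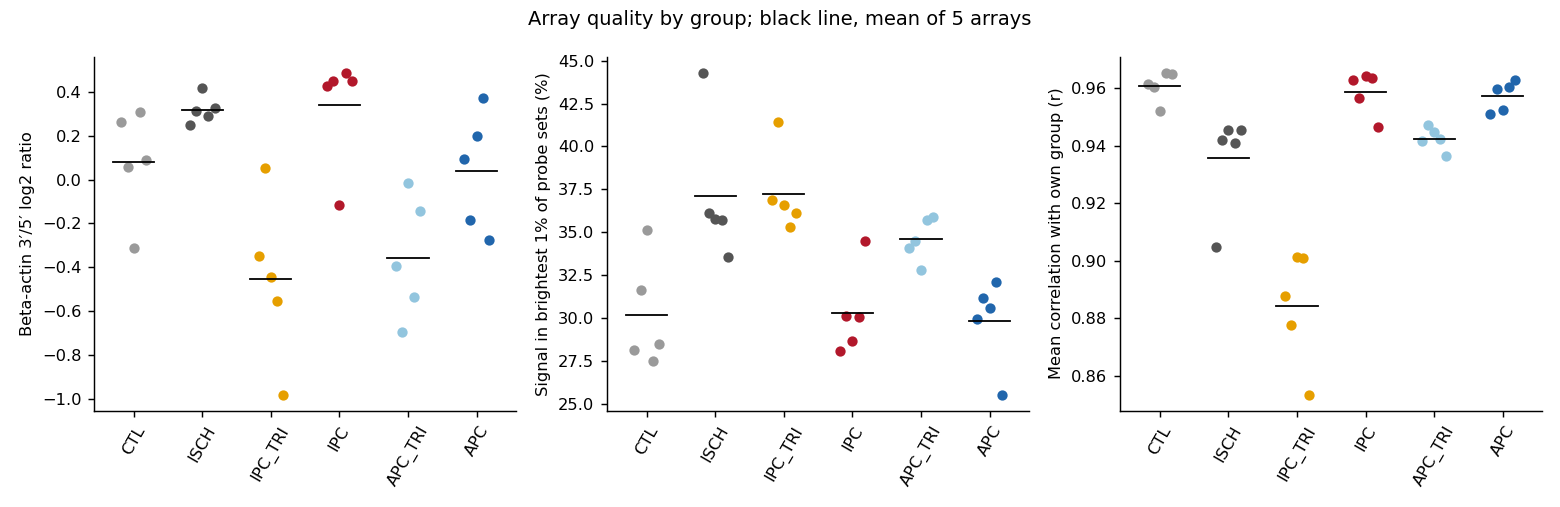
Beta-actin 3′ to 5′ log2 ratio, percent of signal in the brightest 1% of probe sets and mean correlation with the other arrays of the group, for each of 30 arrays (points) in 6 groups, with the group mean as a black line. The IPC_TRI arrays have the lowest mean beta-actin ratio (-0.46) and the lowest mean correlation (0.884), and IPC_TRI array 5 is lowest in both.

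In IPC against IPC_TRI, 15 of 36 measured immediate early genes and 7 of 18 heat shock genes rose. Of the interferon-induced genes 11 of 19 fell, and of the cytokine, chemokine and adhesion genes 15 of 33 fell. In all 1228 of 5244 probe sets passed (23.4%), 732 higher (14%) and 496 lower (9.46%) in IPC. Counted by gene, 386 of 3155 rose (12.2%) and 335 fell (10.6%), and these 2 shares are the background for the gene lists below under the reported setting. Under other settings the background counts of the 3155 genes that rose and fell differ. They were 543 and 151 with median centring and 75 and 58 with the beta-actin ratio as a covariate. The values as deposited gave 314 and 382, and leaving out IPC_TRI array 5 gave 289 and 254. The median change over all genes was 0.01. The split depended on the scaling: the values as deposited, with a median over the probe sets of -0.07 in place of 0.05, gave 598 higher and 574 lower, and median centring, with a median of 0.19, gave 1012 and 236. With the beta-actin ratio as a covariate 255 probe sets passed, 162 higher and 93 lower, and since the ratio differed between the groups, its part in the changes and that of the protocol cannot be told apart. Of the 95 genes named below that passed, 46 did not pass with this covariate. A total of 77 genes passed in each of 22 alternatives, 46 that rose and 31 that fell (2.44% of genes, 1.46% and 0.983%). For 360 genes (11.4%) the arrays of the groups did not overlap, 176 with IPC above (5.58%) and 184 with IPC below (5.83%).

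**Figure D2:**
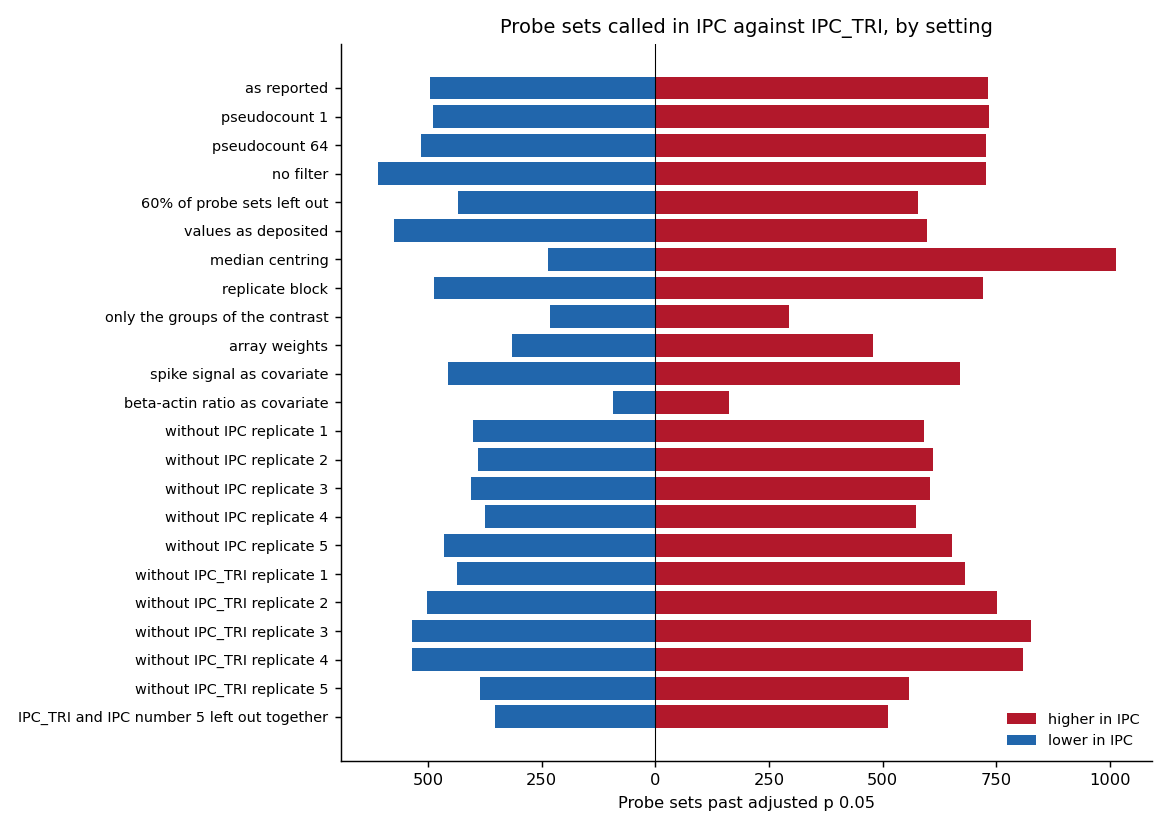
Number of probe sets past an adjusted p of 0.05, higher (red, to the right) and lower (blue, to the left) in IPC than in IPC_TRI, under the reported setting and 22 alternatives. The count falls from 1228 to 526 when only the groups of the comparison enter the fit and to 255 with the beta-actin ratio as a covariate, and median centring shifts the split to 1012 higher and 236 lower.

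Immediate early genes are transcribed within minutes of a stimulus from factors already present in the cell. Of 50 such genes 38 were on the array and 36 were measured, of which 15 rose, 3 fell and 18 did not pass, with a median change of 0.42. Without IPC_TRI array 5 the counts were 12 and 4, and with the beta-actin ratio as a covariate 8 and 0. The signal of Jun, a subunit of the transcription factor AP-1, was 841, 912, 1450, 1241 and 657 on the IPC_TRI arrays and 8774, 9163, 9686, 8951 and 6391 on the IPC arrays. Every IPC array lay above every IPC_TRI array, and Jun rose by 3.12 ± 0.22 (adjusted p = 2.4e-11). Klf4, a zinc finger factor that the vessel wall also uses to control its state, had signals of 579.7, 398, 614, 445 and 147 on the IPC_TRI arrays and 5818, 4274, 5337, 4809 and 2865 on the IPC arrays. It rose by 3.51 ± 0.28 (adjusted p = 2.3e-10), the largest change of any gene with 1 symbol in this comparison, and the arrays did not overlap although IPC_TRI array 5 lay far below the others. The partner of Jun in AP-1, Fos, rose by 1.18 ± 0.19 (adjusted p = 5.7e-05) from a signal that was already 7884 ± 2873 (SD, n = 5) in IPC_TRI. Egr1, a zinc finger factor of the same first wave, rose by 1.83 ± 0.23 (adjusted p = 7.6e-07), and Atf3, a stress factor of the CREB family, by 1.09 ± 0.18 (adjusted p = 4.7e-05). Dusp1, the phosphatase that switches off MAP kinases, rose by 1.07 ± 0.17 (adjusted p = 3.7e-05).

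Cytosolic heat shock proteins keep unfolded proteins soluble and are made under the control of heat shock factor. Of 32 listed genes 20 were on the array and 18 were measured. Of these 18, 7 rose, 1 fell and 10 did not pass, with a median of 0.48. The 7 include Hspd1 and Hspe1, which encode mitochondrial chaperonins and not cytosolic proteins. Without IPC_TRI array 5 the counts were 6 and 0 with a median of 0.24, and with the beta-actin ratio as a covariate 4 and 0 with a median of 0.05. Hsph1, a nucleotide exchange factor of the HSP70 machine, had signals of 698, 483, 741, 499 and 446 on the IPC_TRI arrays and 2833, 3049.8, 2900, 2451 and 2438 on the IPC arrays. The groups were several-fold apart with no overlap, and Hsph1 rose by 2.23 ± 0.18 (adjusted p = 2.6e-10). Hspa1a, the inducible HSP70 itself, had signals of 7064, 5261, 7306, 4960.4 and 1407 on the IPC_TRI arrays and 17067, 17247, 14828, 19380.2 and 16568 on the IPC arrays. It rose by 1.92 ± 0.32 (adjusted p = 5.8e-05), and IPC_TRI array 5 was again far below the rest. Of the J-domain proteins that hand clients to HSP70, Dnaja1 rose by 1.88 ± 0.23 (adjusted p = 6e-07) and Dnajb1 by 1.35 ± 0.25 (adjusted p = 0.00028), the latter with overlapping arrays.

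Heat shock factor is known to bind inverted repeats of GAA, and the promoters of the listed genes were searched for a form with 3 units, GAA, any 2 bases, TTC, any 2 bases and GAA, on both strands. RefSeq promoters of rat build GRCr8, from 250 bases before to 50 after the gene start, were used. The motif was present in 267 of 33469 promoters (0.798%) and in 4 of the 13 listed chaperone genes that had a promoter in the table (30.8%), and these 4 were among the 7 that rose. They were Hsph1, Dnaja1, Hspd1 and Hspe1; the last 2 are named because they hold the motif, and they rose by 0.66 and 0.57. A stretch is shown for the member with the largest rise and for the divergent promoter that Hspd1 and Hspe1 share, with 1 match in capitals, since the letters are the reason for naming these genes. The stretches lie at chr12:10427310-10427366 (plus strand) and chr9:64084240-64084296 (plus strand), 5′ to 3′ on the strand of the named gene.
Hsph1: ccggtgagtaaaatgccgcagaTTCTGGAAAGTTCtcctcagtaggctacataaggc
Hspe1: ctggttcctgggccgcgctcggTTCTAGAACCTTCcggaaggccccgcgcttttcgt
In both, the capitals match the motif on the opposite strand, and they begin at base -36 of Hsph1 and base -65 of Hspe1 counted from the gene start. The shared stretch holds a second, overlapping match on the other strand. A match is a description of the letters and not a measured binding site.

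The endoplasmic reticulum answers unfolded protein with its own chaperones and, when stress lasts, with the factor Ddit3 (CHOP). All 14 listed genes that were on the array, of 23, were measured; 8 rose, 1 fell and 5 did not pass, with a median of 0.56. Those that rose were mostly chaperones and protein disulfide isomerases, and the counts were 7 and 1 without IPC_TRI array 5 and 2 and 0 with the beta-actin ratio as a covariate. The signal of Ddit3 was 469.9, 680.5, 540.2, 453 and 299 on the IPC_TRI arrays and 2556, 1842, 2250.5, 2207 and 1787 on the IPC arrays. All IPC arrays were above all IPC_TRI arrays, and the gene rose by 2.14 ± 0.22 (adjusted p = 3.2e-08). Hspa5 (BiP), the lumenal HSP70, had signals of 883, 1034, 1387, 1064 and 736 on the IPC_TRI arrays and 2694, 2909, 2711, 2448 and 2464 on the IPC arrays. Its rise of 1.36 ± 0.17 (adjusted p = 9.7e-07) was again without overlap, and its other probe set changed by 2.99. Dnajb9, a cofactor of BiP, rose by 1.59 ± 0.35 (adjusted p = 0.00158) and the disulfide isomerase gene Pdia3 by 0.87 ± 0.17 (adjusted p = 0.00039), while the other probe set of Pdia3 changed by -0.23. The endoplasmic reticulum stress element, CCAAT, any 9 bases and CCACG, searched on both strands, was in 22 of 33469 promoters (0.0657%) and in 4 of 12 listed genes with a promoter (33.3%). Of these 4, Hspa5 and Canx rose, Calr fell by 0.73 and Hsp90b1 did not pass at -0.31. Canx, a lectin chaperone of the membrane, is named for its match and rose by 1.40. The stretches of the 2 that rose are shown, with the element in capitals, from chr3:38452951-38453013 (plus strand) and chr10:35158047-35158107 (minus strand) of GRCr8 (RefSeq).
Hspa5: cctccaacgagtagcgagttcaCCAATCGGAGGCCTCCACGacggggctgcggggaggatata
Canx: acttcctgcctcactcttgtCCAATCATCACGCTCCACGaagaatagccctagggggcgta
The element begins at base -43 of Hspa5 and at base -230 of Canx.

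Interferon-induced genes encode antiviral proteins, antigen processing subunits and the factors that pass on the interferon signal. Of 45 listed genes 20 were on the array and 19 were measured; 0 rose, 11 fell and 8 did not pass, and the median was -0.95. Without IPC_TRI array 5 the counts were 0 and 10 with a median of -0.68, and with the beta-actin ratio as a covariate 0 and 3 with a median of -0.40. Rsad2 (viperin), an antiviral enzyme, had signals of 1604, 2265, 1915, 5799 and 6379 on the IPC_TRI arrays and 517, 636, 730.4, 285 and 464 on the IPC arrays. The IPC_TRI arrays were themselves spread, with arrays 4 and 5 high, yet all lay above the IPC arrays, and Rsad2 changed by -2.60 ± 0.30 (adjusted p = 2e-07). Psmb8, a subunit of the immunoproteasome, changed by -1.45 ± 0.22 (adjusted p = 1.5e-05), and the guanylate binding protein gene Gbp2 by -1.54 ± 0.26 (adjusted p = 0.00011), both without overlap. The dynamin-like antiviral gene Mx1 changed by -1.70 ± 0.35 (adjusted p = 0.00084), and by -0.67 (adjusted p = 0.379) with the beta-actin covariate. Its paralogue Mx2 changed by -2.14 ± 0.51 (adjusted p = 0.00323) with overlapping arrays, with IPC array 3 at 210.5 and the other IPC arrays between 48.7 and 61.8. With the beta-actin covariate the change of Mx2 was -0.21 (adjusted p = 0.865), so neither gene passed there. Probes of Mx1 and Mx2 can share sequence, so their values may not be independent.

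The interferon-stimulated response element was searched as GAAA, any 2 bases and GAAA on both strands. It was in 1312 of 33469 promoters (3.92%) and in 11 of 18 listed genes with a promoter (61.1%). Of these 11, 7 fell, 0 rose and 4 did not pass. Stretches of the 2 named genes whose whole match lies before the gene start are shown with the element in capitals, from chr6:48788236-48788289 (minus strand) and chr2:234005674-234005726 (plus strand) of GRCr8 (RefSeq).
Rsad2: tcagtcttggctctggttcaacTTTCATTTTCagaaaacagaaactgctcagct
Gbp2: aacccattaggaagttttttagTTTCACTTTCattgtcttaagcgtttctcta
In both, the capitals match on the opposite strand, and they begin at base -147 of Rsad2 and base -31 of Gbp2.

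Cytokines, chemokines and adhesion molecules recruit leukocytes to the vessel wall. Of 52 listed genes 41 were on the array and 33 were measured, of which 2 rose, 15 fell and 16 did not pass, with a median of -0.58. Without IPC_TRI array 5 the counts were 1 and 14, and with the beta-actin ratio as a covariate 1 and 10. Cxcl10, a chemokine for T cells that interferons induce, had signals of 3503, 2529, 2353, 9438 and 6565 on the IPC_TRI arrays and 496, 471, 898, 492 and 389 on the IPC arrays. It changed by -3.01 ± 0.31 (adjusted p = 2.1e-08), the largest fall of any gene in the comparison. Cx3cl1 (fractalkine), a chemokine anchored on endothelium, had signals of 10122, 7538, 5548, 7503 and 3345 on the IPC_TRI arrays and 754, 1634, 1316, 1455 and 1181 on the IPC arrays. Each IPC array was below the lowest IPC_TRI array, and the change was -2.38 ± 0.32 (adjusted p = 3.3e-06). Il1b, the cytokine released by activated macrophages, had signals of 692, 786, 596, 1249.8 and 1217 on the IPC_TRI arrays and 256, 230, 293, 249.5 and 231 on the IPC arrays, a narrow band in IPC below all IPC_TRI arrays, and changed by -1.73 ± 0.23 (adjusted p = 2.9e-06). Nfkbia, the inhibitor that NF-kappaB induces to limit itself, had signals of 6619, 7063, 6089.7, 6579.9 and 5681 on the IPC_TRI arrays and 1942, 2654, 3217, 2512 and 1616 on the IPC arrays. The IPC_TRI arrays were close to one another and well above the IPC arrays, and Nfkbia changed by -1.52 ± 0.14 (adjusted p = 5.4e-09).

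Other proteins of immune signalling were among the 12 largest falls. The receptor Cd40 changed by -1.84 ± 0.39 (adjusted p = 0.00125), the macrophage growth factor Csf1 by -1.82 ± 0.35 (adjusted p = 0.00042) and the decoy receptor Tnfrsf11b (osteoprotegerin) by -1.86 ± 0.41 (adjusted p = 0.00152). Outside those 12, Lif, a cytokine of the interleukin 6 family, changed by -1.72 ± 0.39 (adjusted p = 0.00229). The 2 members of the list that rose were Socs2 (1.37, adjusted p = 0.0214) and Socs3 (1.18, adjusted p = 0.00994), inhibitors of cytokine receptor signalling. They are named because they are all that rose. Both had overlapping arrays, and neither passed when IPC and IPC_TRI alone entered the fit. Vcam1, which holds leukocytes on endothelium, changed by -0.79 ± 0.26 (adjusted p = 0.0251) with overlapping arrays and passed in 11 of 22 alternatives. Il6 changed by 0.87 ± 0.43 (adjusted p = 0.144) and Ptgs2 (cyclooxygenase 2) by -0.46 ± 0.35 (adjusted p = 0.357), and neither passed.

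**Figure D3:**
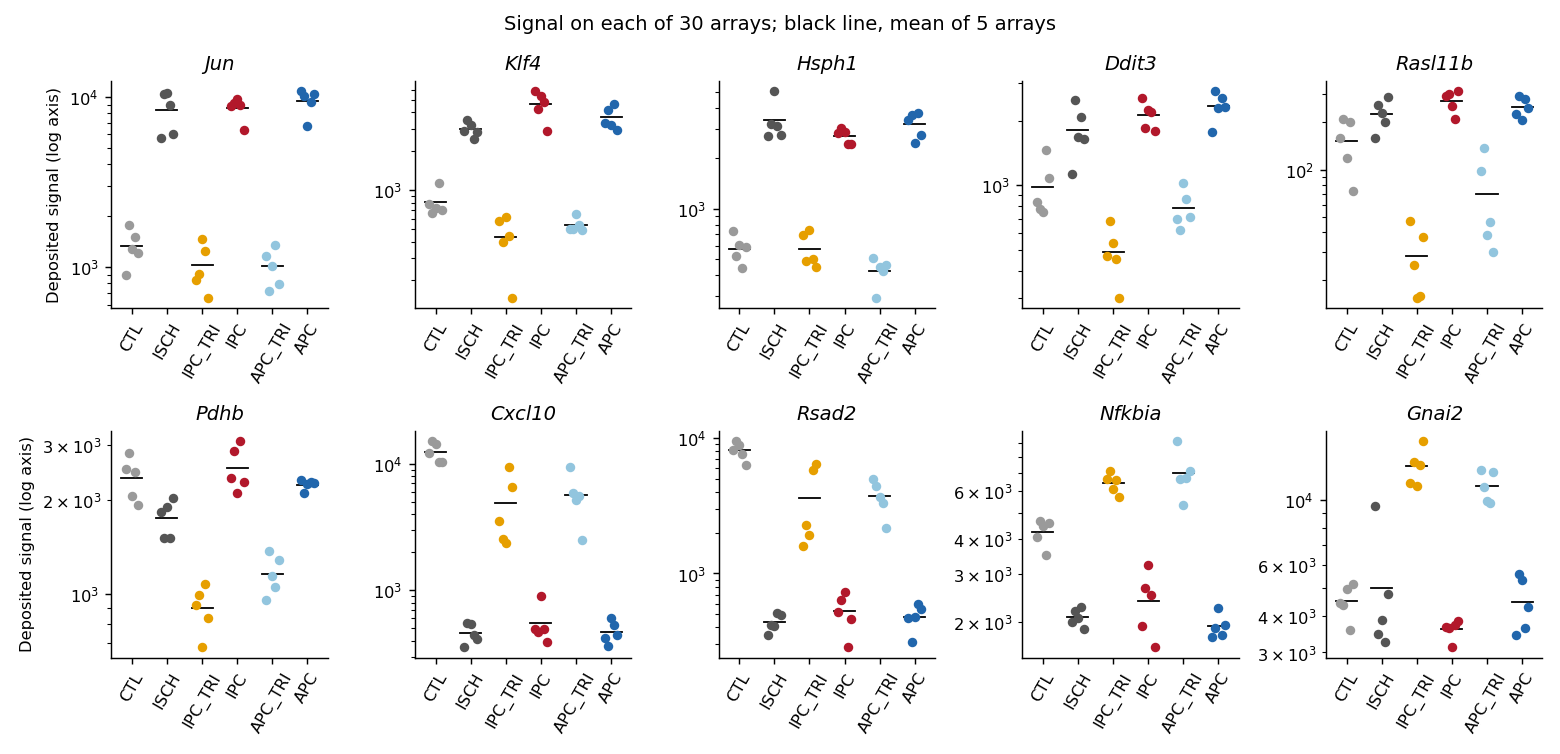
Deposited signal (log axis) of 10 genes on each of 30 arrays (points) in 6 groups, with the group mean of 5 arrays as a black line. In Jun, Klf4, Hsph1, Ddit3, Rasl11b and Pdhb the IPC arrays lie above the IPC_TRI arrays, in Cxcl10, Rsad2, Nfkbia and Gnai2 below them, with no overlap in any of the 10.

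Genes of energy metabolism passed in both directions, and fewer passed with the beta-actin covariate. Of 20 measured genes of the citric acid cycle, with pyruvate dehydrogenase (30 listed, 21 on the array) 5 rose and 3 fell, with a median of 0.12; median centring gave 6 and 1, and the beta-actin covariate 2 and 1. Pdhb, the beta subunit of the enzyme that feeds pyruvate into the cycle, had signals of 922, 994, 676, 1078 and 839 on the IPC_TRI arrays and 2349, 2864, 2104, 3078 and 2278 on the IPC arrays. The groups did not overlap, and Pdhb rose by 1.43 ± 0.14 (adjusted p = 1.3e-08), with a second probe set at 1.68. Mdh2, the mitochondrial malate dehydrogenase, rose by 0.69 ± 0.13 (adjusted p = 0.0002), but its other probe set changed by -0.16. Idh2, the mitochondrial isocitrate dehydrogenase that uses NADP, changed by -0.74 ± 0.16 (adjusted p = 0.00148), with its other probe set at 0.11. Pdk2, a kinase that switches pyruvate dehydrogenase off, changed by -0.55 ± 0.14 (adjusted p = 0.00497).

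Of 33 measured genes of fatty acid oxidation and uptake (43 listed, 36 on the array) 8 rose and 5 fell, with a median of 0.20; median centring gave 10 and 1, and the beta-actin covariate 2 and 0. Cpt1a, the carnitine transferase that admits long fatty acids to mitochondria and is the form known from liver, had signals of 71.4, 151, 147, 141 and 84.2 on the IPC_TRI arrays and 394, 558, 441, 548 and 513 on the IPC arrays. No IPC array reached down to the IPC_TRI arrays, and Cpt1a rose by 2.17 ± 0.26 (adjusted p = 5.4e-07). Fabp4, a fatty acid binding protein of adipocytes, endothelium and macrophages, rose by 2.54 ± 0.34 (adjusted p = 3.3e-06). Acadm, the medium-chain acyl-CoA dehydrogenase, rose by 0.97 ± 0.22 (adjusted p = 0.00211), and IPC_TRI array 5 was the one far below the rest. Of 23 measured genes of glycolysis and glucose transport (32 listed, 26 on the array) 4 rose and 3 fell, with a median of -0.05; median centring gave 8 and 2, and the beta-actin covariate 2 and 0. The enolase of muscle, Eno3, rose by 1.17 ± 0.21 (adjusted p = 0.00017), the lactate carrier Slc16a1 by 1.11 ± 0.24 (adjusted p = 0.0015) and Pgk1, a kinase of the pathway, by 0.63 ± 0.14 (adjusted p = 0.00157). Pfkfb3, which makes the activator of phosphofructokinase, changed by -1.34 ± 0.29 (adjusted p = 0.00151).

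All 31 genes of the respiratory chain and ATP synthase on the array (48 listed) were measured, of which 8 rose and 4 fell, with a median of 0.02; median centring gave 12 and 2, and the beta-actin covariate 2 and 1. Uqcrc2, a core protein of complex III, rose by 1.07 ± 0.18 (adjusted p = 5.1e-05) and Cox7b, of complex IV, by 0.77 ± 0.14 (adjusted p = 0.00019). Cox8a, another subunit of complex IV, changed by -0.87 ± 0.14 (adjusted p = 5.7e-05), and its other probe sets by -0.69 to 0.12. Atp5f1e, the epsilon subunit of ATP synthase, changed by -0.60 ± 0.13 (adjusted p = 0.00141). Subunits of complex IV passed in opposite directions.

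Contractile genes are among the brightest on the array, and their values depended on the scaling. Of 27 sarcomere genes 22 were on the array and 21 were measured; 1 rose, 3 fell and 17 did not pass, with a median of -0.12, while the values as deposited gave 1 and 6 with a median of -0.37. Tpm1 (tropomyosin) had signals of 93613, 112735, 74991, 81951 and 119862 on the IPC_TRI arrays and 27244, 33513, 31398, 36951 and 44117 on the IPC arrays. The deposited signals differed more than the normalized change of -0.59 ± 0.10 (adjusted p = 8.7e-05), and 3 dimmer probe sets of Tpm1 changed by 0.10 to 0.53. Ankrd1, a stress-responsive protein of the sarcomere, changed by -0.57 ± 0.10 (adjusted p = 8e-05), the intermediate filament desmin (Des) by -0.59 ± 0.14 (adjusted p = 0.00242), and Tcap, which caps titin, rose by 0.79 ± 0.22 (adjusted p = 0.00881). Myh6, the main cardiac myosin of the rat, did not pass at 0.13 ± 0.11 (adjusted p = 0.404). The natriuretic peptide genes, which rise when the heart wall is stretched, did not pass either, with Nppa at -0.73 ± 0.36 (adjusted p = 0.14) and Nppb at -0.15 ± 0.16 (adjusted p = 0.516). Adm (adrenomedullin), a vasodilator peptide of the same list of 14 measured fetal and hypertrophy genes (22 listed, 17 on the array; 2 rose, 2 fell), rose by 1.51 ± 0.36 (adjusted p = 0.0031).

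Among 35 measured genes of calcium handling and ion channels (52 listed, 40 on the array) 3 rose and 4 fell; median centring gave 4 and 0, and the beta-actin covariate 1 and 0. Pln (phospholamban), the brake on the calcium pump, rose by 0.71 ± 0.15 (adjusted p = 0.00136). Camk2d, the cardiac calcium and calmodulin kinase, rose by 0.76 ± 0.16 (adjusted p = 0.00093) at its brightest probe set, but its other probe sets ran from -0.42 to 1.23. Abcc9, the sulfonylurea receptor of the KATP channel that preconditioning is known to open, changed by -0.62 ± 0.17 (adjusted p = 0.00929) with overlapping arrays and passed in 18 of 22 alternatives, and its other probe sets by 0.25 and 0.64.

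Of 32 measured genes of preconditioning signalling (54 listed, 40 on the array) 2 rose, 4 fell and 26 did not pass, with a median of 0.06; median centring gave 2 and 1, and the beta-actin covariate 1 and 1. Gnai2 encodes the inhibitory G protein subunit through which adenosine and opioid receptors act. Its signals were 11479, 13463, 11189, 13195 and 15928 on the IPC_TRI arrays and 3679.5, 3628, 3120.4, 3738 and 3856 on the IPC arrays. The gap was wide and the arrays within each group were close, and Gnai2 changed by -1.81 ± 0.20 (adjusted p = 1e-07). The mean signal was 4498 in CTL, 4986 in ISCH, 13051 in IPC_TRI, 3604 in IPC, 11186 in APC_TRI and 4454 in APC, so both trigger groups were high and the means of the other 4 groups lay between 3604 and 4986. The other probe sets of Gnai2 changed by -0.45 and -0.35. The adenine nucleotide translocator genes Slc25a5 and Slc25a4 rose by 0.96 ± 0.15 (adjusted p = 3.7e-05) and 0.51 ± 0.13 (adjusted p = 0.00666). Slc25a4 passed in 18 of 22 alternatives and changed by 0.08 (adjusted p = 0.79) with the values as deposited.

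Among the 12 largest rises were genes outside these lists. Rasl11b, a small GTPase of the Ras family, had signals of 47.4, 24.7, 15.4, 15.9 and 37.5 on the IPC_TRI arrays and 292, 302, 252, 209.7 and 313 on the IPC arrays. The IPC_TRI arrays were all dim and the IPC arrays all brighter, and Rasl11b rose by 3.08 ± 0.30 (adjusted p = 9.2e-09). G0s2, an inhibitor of triglyceride lipase, rose by 2.33 ± 0.50 (adjusted p = 0.00125), the tankyrase gene Tnks2 by 2.14 ± 0.32 (adjusted p = 1.7e-05), the kinase anchor Akap12 by 2.07 ± 0.35 (adjusted p = 7e-05) and the growth factor Pdgfb by 2.05 ± 0.35 (adjusted p = 8.9e-05). Acadsb, a dehydrogenase of branched-chain acyl-CoA, rose by 2.02 ± 0.53 (adjusted p = 0.00698) with overlapping arrays. The mean signal of these 6 genes in IPC_TRI lay between 28.2 and 191.

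Among the 12 largest falls, Cdo1, which oxidises cysteine, changed by -1.78 ± 0.38 (adjusted p = 0.00125), and its other probe set by -0.09. The secreted lectin gene Clec11a changed by -1.76 ± 0.39 (adjusted p = 0.00187) and the serine protease inhibitor gene Serpina3l by -1.73 ± 0.47 (adjusted p = 0.00776). Pnck, a calmodulin-dependent kinase, changed by -1.90 ± 0.66 (adjusted p = 0.0353) with overlapping arrays. It passed in 11 of the 21 alternatives in which it was tested.

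Of 29 measured antioxidant and detoxification genes (40 listed, 31 on the array) 6 rose and 2 fell, with a median of 0.09; median centring gave 7 and 0, and the beta-actin covariate 3 and 1. Txnip, an inhibitor of thioredoxin, rose by 1.43 ± 0.27 (adjusted p = 0.00032), catalase (Cat) by 1.10 ± 0.24 (adjusted p = 0.00158), the peroxiredoxin Prdx1 by 0.83 ± 0.16 (adjusted p = 0.00028) and Gclm, a subunit of the enzyme that limits glutathione synthesis, by 1.52 ± 0.35 (adjusted p = 0.00242). Hmox1 (haem oxygenase 1) did not pass at -0.47 ± 0.19 (adjusted p = 0.0653). Of 20 measured genes of hypoxia and angiogenesis (36 listed, 25 on the array) 4 rose and 3 fell; median centring gave 5 and 1, and the beta-actin covariate 3 and 0. Plat, the tissue plasminogen activator that dissolves fibrin, had signals of 286, 391, 419, 429.6 and 411 on the IPC_TRI arrays and 952, 1700, 1153, 1422 and 939.8 on the IPC arrays. It rose by 1.65 ± 0.18 (adjusted p = 1.1e-07) with no overlap. Of 15 measured apoptosis regulators (38 listed, 19 on the array) 0 rose and 3 fell; median centring gave 3 and 1, and the beta-actin covariate 0 and 0. Cdkn1a (p21), a cell cycle inhibitor, changed by -1.39 ± 0.40 (adjusted p = 0.0114) and passed in 16 of 22 alternatives, and Casp1, the protease that matures interleukin 1 beta, changed by -1.09 ± 0.24 (adjusted p = 0.00144).

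Of 37 measured ribosomal protein genes 6 rose and 3 fell with a median of 0.05; median centring gave 11 and 1, and the beta-actin covariate 0 and 3. Rpl39, of the large subunit, rose by 0.74 ± 0.20 (adjusted p = 0.00722), and Rps24, of the small subunit, changed by -0.93 ± 0.19 (adjusted p = 0.00076). Of 25 measured proteasome and ubiquitin genes 3 rose and 2 fell with a median of 0.11; median centring gave 6 and 1, and the beta-actin covariate 0 and 0. Ube2d2, a ubiquitin-conjugating enzyme, rose by 1.09 ± 0.18 (adjusted p = 4.7e-05), and the core subunit gene Psmb4 changed by -0.95 ± 0.17 (adjusted p = 0.00015). All 4 of 12 measured genes of the cholesterol synthesis list that passed rose, with the others between -0.23 and 0.87. Median centring gave 4 and 0, and the beta-actin covariate 2 and 0. Of the 4, Scd2 is a desaturase of fatty acids and not an enzyme of cholesterol synthesis (1.10 ± 0.28, adjusted p = 0.00548). The others were the isomerase Idi1 (1.08 ± 0.26, adjusted p = 0.00323), the sterol oxidase Msmo1 (1.04 ± 0.23, adjusted p = 0.00157) and the demethylase Cyp51 (0.89 ± 0.32, adjusted p = 0.0395). Cyp51 passed in 11 of 22 alternatives. Of 11 measured glucocorticoid and circadian genes 1 rose and 0 fell.

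Because the ventricle is a mixed tissue, fewer cells of a type and less RNA per cell cannot be told apart in these values. Of 10 cardiomyocyte markers 1 rose and 1 fell, with a median of -0.05, while the values as deposited gave 1 and 5 with a median of -0.51 and median centring 1 and 2 with a median of -0.25. Their summed deposited signal ran from 323470 to 477363 in IPC_TRI and from 225430 to 322210 in IPC, without overlap. The sum over all genes tested did not overlap either, at 4264749 to 4832785 in IPC_TRI and 3791133 to 4050748 in IPC. The cardiomyocyte marker that rose was Pln, given above, and the one that fell was Ckm, muscle creatine kinase (-0.54 ± 0.14, adjusted p = 0.0057). Of 9 measured myeloid markers 1 fell, Cd14, a receptor for bacterial endotoxin (-1.25 ± 0.17, adjusted p = 3.3e-06), and the summed signal of the list was 6804 to 8549 in IPC_TRI and 6674 to 9525 in IPC. Among 22 measured markers of fibroblasts and extracellular matrix 2 rose and 2 fell, among them Timp1, an inhibitor of matrix proteases (-1.08 ± 0.20, adjusted p = 0.00022), and Col1a1, a chain of the main collagen (1.04 ± 0.38, adjusted p = 0.0452), whose IPC array 5 stood at 11914 against at most 5229 on the other IPC arrays and which passed in 8 of 22 alternatives. Of 12 measured endothelial markers 1 rose and 2 fell, including Selp (P-selectin), which lets leukocytes roll (-1.15 ± 0.27, adjusted p = 0.003), and the caveolin gene Cav1 (-0.80 ± 0.26, adjusted p = 0.0224), which passed in 14 of 22 alternatives. Lum (lumican), a matrix proteoglycan, rose by 0.85 ± 0.25 (adjusted p = 0.0152) and Pmp22, a myelin protein, by 0.97 ± 0.27 (adjusted p = 0.0106). The mast cell tryptase gene Tpsab1 changed by -0.64 ± 0.23 (adjusted p = 0.0431) and passed in 9 of 22 alternatives, and Atp2a1, the calcium pump of fast skeletal muscle, by -0.98 ± 0.31 (adjusted p = 0.0221). Pnmt, which makes adrenaline, did not pass at 0.60 ± 0.28 (adjusted p = 0.129). Smooth muscle, lymphocyte, mast cell, nerve, red blood cell, adipocyte, skeletal muscle and atrial lists had 0 to 2 members that passed each. None of their measured markers was at 0 on any array, but this held for all genes tested and does not show that these cells were present. The part of cell composition in the results above was not tested.

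**Figure D4:**
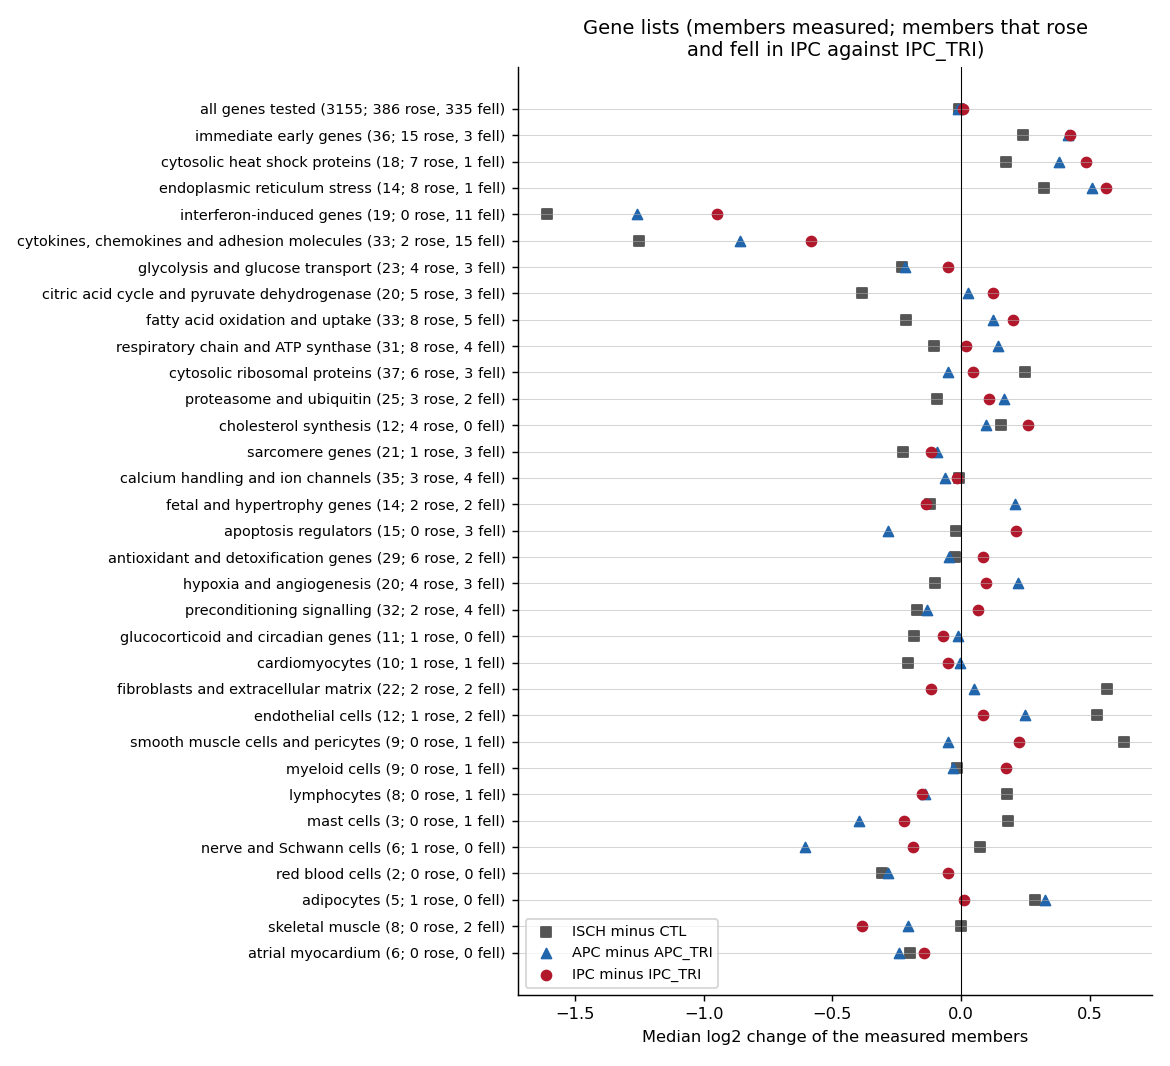
Median log2 change of the measured members of 32 gene lists and of all genes, in IPC against IPC_TRI (red circles), ISCH against CTL (grey squares) and APC against APC_TRI (blue triangles), with the number measured and the numbers that rose and fell in IPC against IPC_TRI beside each name. Interferon-induced genes are lowest in all 3 effects (-0.95, -1.61 and -1.26), and the citric acid cycle list is at 0.12 with ischaemic preconditioning and at -0.38 without.

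The same effect of test ischaemia without preconditioning was read from ISCH against CTL, in which 460 of 5244 probe sets passed (8.77%), with 107 genes higher (3.39%) and 155 lower (4.91%). The 2 effects share no array, so their difference could be tested directly, and it passed for 714 probe sets (13.6%), 443 higher and 271 lower with preconditioning. With the signal of the bacterial spikes as a covariate 70 passed, 42 higher and 28 lower; the mean log2 spike signal was 12.02 ± 0.61 (SD, n = 5) in ISCH and 10.75 ± 0.69 in CTL, and its part in the difference was not tested further. Median centring gave 781 higher and 129 lower, and the values as deposited 400 and 358.

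Of 386 genes that rose with preconditioning 38 also rose without it (9.84% of the 386 and 35.5% of the 107 that rose in ISCH), and of 335 that fell 54 also fell (16.1% of the 335 and 34.8% of the 155). Jun rose by 3.12 in IPC and 2.64 in ISCH, with a difference of 0.48 ± 0.31 (adjusted p = 0.304). For Hsph1 the changes were 2.23 and 2.55, and the difference was -0.31 ± 0.26 (adjusted p = 0.44). Neither difference passed, and Fos did not pass either at -0.11 ± 0.27 (adjusted p = 0.828). Klf4 rose more with preconditioning, with a difference of 1.55 ± 0.40 (adjusted p = 0.0116), as did Ddit3 (1.22 ± 0.32, adjusted p = 0.0124), Hspa5 (0.78 ± 0.24, adjusted p = 0.0309) and Egr1 (1.00 ± 0.32, adjusted p = 0.0361). Of 32 alternatives the difference of Hspa5 passed in 21 and that of Egr1 in 16, with adjusted p up to 0.256 and 0.428. Atf3 rose in IPC and did not pass in ISCH at -0.11, and the difference was 1.20 ± 0.25 (adjusted p = 0.00243).

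The median change of the interferon-induced genes was -0.95 with preconditioning and -1.61 without. Of the 19 measured, 5 had a difference that passed and all 5 differences were positive. Over all genes 7.51% had a positive and 5.45% a negative difference. Mx2 changed by -2.14 and -4.98 (difference 2.85 ± 0.72, adjusted p = 0.0104), Gbp2 by -1.54 and -3.50 (1.96 ± 0.37, adjusted p = 0.0011) and Rsad2 by -2.60 and -4.21 (1.60 ± 0.43, adjusted p = 0.0134). The mean signal of Rsad2 was 8062 in CTL, 436 in ISCH, 3593 in IPC_TRI, 527 in IPC, 3707 in APC_TRI and 479.6 in APC. The means of ISCH, IPC and APC thus lay between 436 and 527, and the mean of CTL was above that of IPC_TRI. The chemokine Cxcl10 ran the same way, with mean signals of 12448 in CTL, 461 in ISCH, 4878 in IPC_TRI, 549 in IPC, 5715 in APC_TRI and 473 in APC and a difference of 1.86 ± 0.44 (adjusted p = 0.00603). For Vcam1 the difference was 1.59 ± 0.36 (adjusted p = 0.00466) and for Il6 2.16 ± 0.61 (adjusted p = 0.0187). With the spike covariate the difference of Gbp2 passed, and those of Mx2, Rsad2, Cxcl10, Vcam1 and Il6 did not.

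Of 20 citric acid cycle and pyruvate dehydrogenase genes 8 had a positive and 1 a negative difference, against 7.51% and 5.45% of all genes. Pdhb rose by 1.43 in IPC and changed by -0.39 in ISCH (difference 1.82 ± 0.20, adjusted p = 2.1e-06), and its mean signal was 2349 in CTL, 1755 in ISCH, 902 in IPC_TRI, 2534 in IPC, 1163 in APC_TRI and 2236 in APC. Acadm rose by 0.97 and fell in ISCH at -0.82 (1.79 ± 0.31, adjusted p = 0.00043), and Slc16a1 rose by 1.11 and fell at -0.79 (1.90 ± 0.34, adjusted p = 0.00063). Of the 386 genes that rose with preconditioning 16 fell without it (4.15%), against 4.91% of all genes, and of the 335 that fell 10 rose without it (2.99%), against 3.39% of all genes. Cpt1a (1.64 ± 0.37, adjusted p = 0.00483), Plat (1.71 ± 0.26, adjusted p = 0.00017) and Adm (2.03 ± 0.51, adjusted p = 0.00999) also had positive differences. Gnai2 fell in IPC and did not pass in ISCH at 0.01, with a difference of -1.82 ± 0.28 (adjusted p = 0.00019). Notch1, a receptor of cell fate signalling, changed by 0.11 and 0.91 (-0.80 ± 0.26, adjusted p = 0.0417), a difference that passed in 12 of 32 alternatives, and Dcn (decorin), a matrix proteoglycan, changed by -0.69 and 0.65 (-1.34 ± 0.24, adjusted p = 0.00055).

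The 6 largest positive differences were in Fdft1 (squalene synthase, 2.99 ± 0.66, adjusted p = 0.00381), Gpam (which starts triglyceride synthesis, 2.98 ± 0.79, adjusted p = 0.0129), Mx2, B4galt1 (a galactosyltransferase, 2.69 ± 0.71, adjusted p = 0.0129), Acadsb (2.69 ± 0.76, adjusted p = 0.0182) and Slc25a14 (a mitochondrial carrier, 2.68 ± 0.49, adjusted p = 0.00078). The 6 largest negative ones were in Kctd13 (a ubiquitin ligase adaptor, -4.22 ± 1.30, adjusted p = 0.0306), Syt5 (a calcium sensor of vesicles, -2.84 ± 0.56, adjusted p = 0.00148), Lif (-2.42 ± 0.56, adjusted p = 0.00539), Serpina3l (-2.38 ± 0.66, adjusted p = 0.0173), Cdo1 (-2.25 ± 0.54, adjusted p = 0.00664) and Sult2a2 (a sulfotransferase, -2.10 ± 0.38, adjusted p = 0.00063). Of these genes, Fdft1 (0.87), Gpam (0.99) and Kctd13 (-2.26) did not pass in IPC against IPC_TRI itself, and Fdft1 changed by -2.13 in ISCH. Kctd13 had signals of 1188, 88172, 701, 1298 and 3449 on the IPC_TRI arrays and 238, 7268, 883, 169 and 246 on the IPC arrays. The difference of Kctd13 passed in 22 of 32 alternatives. Its array 2 was far above the rest in both groups, and its other probe sets changed by -0.24 to 0.34 in IPC. Of 31 differences from ISCH given here that passed, 10 passed with the spike covariate as well: those of Atf3, Gbp2, Gnai2, Serpina3l, Pdhb, Acadm, Plat, Dcn, Syt5 and Sult2a2.

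**Figure D5:**
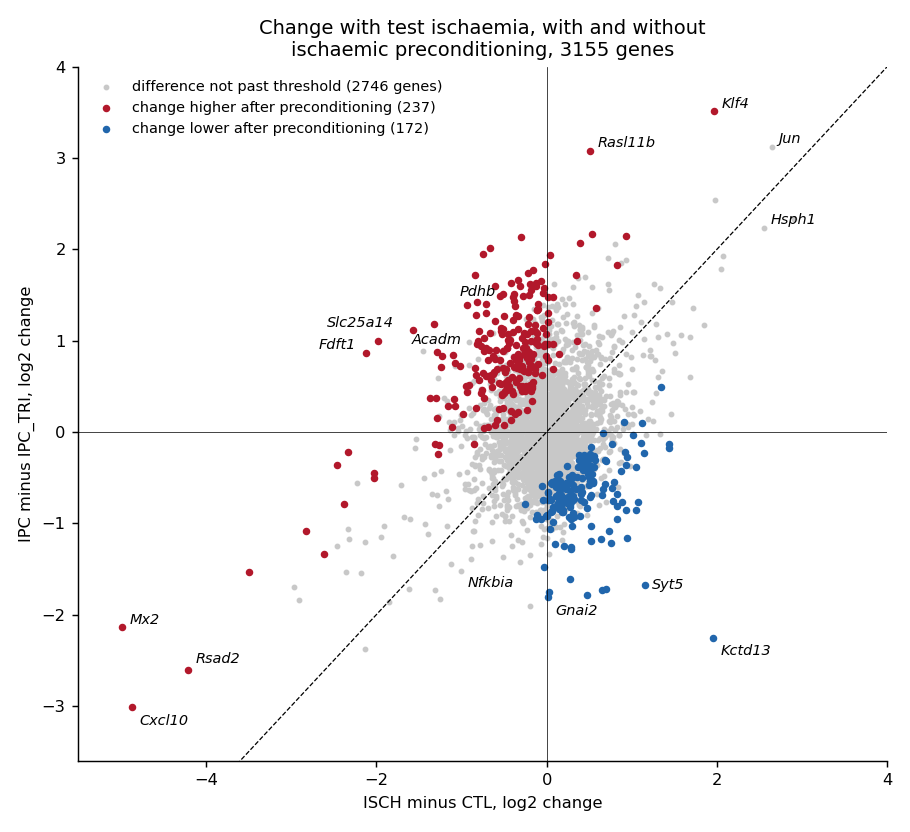
Change with test ischaemia in hearts preconditioned by ischaemia (IPC minus IPC_TRI, vertical, log2) against the change without preconditioning (ISCH minus CTL, horizontal, log2) for 3155 genes, with equal change on the dashed line. Red and blue points are the 237 and 172 genes whose difference between the effects passed, higher and lower; Jun and Hsph1 lie near the line, and Mx2, Cxcl10 and Rsad2 fall in both but less with preconditioning.

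The effect of test ischaemia after anesthetic preconditioning was read from APC against APC_TRI, in which 928 probe sets passed (17.7%), with 281 genes higher (8.91%) and 263 lower (8.34%). It shares no array with IPC against IPC_TRI, but both have a trigger group with a low beta-actin ratio as their baseline. A p that misses the threshold does not show that the effects were alike. The difference of the 2 effects passed for 5 of 5244 probe sets (0.0953%) by limma, with 446 at an unadjusted p under 0.05. By gene, 172 of the 386 that rose (44.6%, and 61.2% of the 281 that rose in APC) and 156 of the 335 that fell (46.6%, and 59.3% of 263) were shared. Across 3155 genes the 2 changes correlated with r = 0.69 (Spearman's rho 0.65), against r = 0.19 (rho 0.03) for the change without preconditioning; genes are not independent, and these are descriptions. The 2 genes with a difference (0.0634%) were Uck2 and Scd2. Uck2, a uridine and cytidine kinase, had signals of 593, 461, 633, 601 and 495 on the IPC_TRI arrays and 204, 268, 211, 238 and 94.5 on the IPC arrays. It changed by -1.37 ± 0.25 (adjusted p = 0.00022) in IPC and by 0.32 in APC (difference -1.69 ± 0.36, adjusted p = 0.0476). Scd2 changed by 1.10 and -0.81 (difference 1.91 ± 0.40, adjusted p = 0.0476), with overlapping arrays in IPC and IPC_TRI. Both were at the edge of the threshold, and only 0 to 10 probe sets passed over the alternatives.

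In all 3 effects 29 genes rose and 47 fell, which is 7.51% of the 386 that rose and 14.0% of the 335 that fell in IPC against IPC_TRI. Of these, 13 and 17 also passed in each of the 22 alternatives of IPC against IPC_TRI. The 13 were Jun, Klf4, Fos, Egr1, Dusp1, Hsph1, Hspa1a, Dnaja1, Dnajb1, Hspa5, Ddit3, Fabp4 and Txnip. The 17 included Cxcl10, Cx3cl1, Il1b, Csf1, Cd14, Gbp2, Psmb8, Rsad2, Nfkbia and Ankrd1. The rest of the 17 are not listed here, so these names do not describe the whole set.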

How the data were processed

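RNA of 30 rat left ventricle samples was hybridised to Affymetrix arrays by standard handling, per the labels' protocols, and the deposited values are linear signal intensities per probe set. The authors' scaling put the 2% trimmed mean of each deposited array between 500.8 and 501. The upstream software is not given in the sources used here. Among the 8740 probe sets, 7006 carried 1 gene symbol in the platform annotation, 308 several and 1426 none, and only those with 1 symbol are named.

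Intensities were used as log2(intensity + 16) after quantile normalization of all 30 arrays, and the dimmest 40% of probe sets, by mean over 30 arrays, were not tested. Limma 3.58.1 in R 4.3.3 fitted 1 model over 6 groups (lmFit and eBayes), with Benjamini-Hochberg adjustment over 5244 probe sets in each of 5 contrasts. A gene was represented by its brightest tested probe set. The labels call the 5 arrays of a group biological replicates without saying that each is 1 animal, so p-values measure the spread between these arrays.

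Genes were named by a rule: the 12 largest changes in each direction past the threshold, up to 4 members with the smallest p of each of 32 lists, the 6 largest differences between effects in each direction, and a short set named in any case. Others are said to be named for another reason. The comparison and the lists were chosen with earlier results of these data known. On data simulated from these arrays with 200 probe sets changed, IPC against IPC_TRI recovered 31.3% of 1.5-fold, 65.7% of 2-fold and 97.0% of 4-fold changes with 9 false calls of 138. The difference from the ISCH effect recovered 2.99%, 38.8% and 83.3%, with 1 false call of 84. The simulated noise was independent between probe sets, had the same spread in all groups and held no difference in array quality. The measured IPC_TRI arrays were less alike than the IPC arrays (mean correlation 0.884 against 0.959). These rates therefore describe the simulated setting and may not hold for the measured arrays. Alternatives were other pseudocounts, filters and scalings, a replicate block, only the groups compared, array weights, spike or beta-actin covariates, and leaving out arrays.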

Additional observations from a re-analysis of the deposited data

Results flagged for a closer look

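In 19 of 222 sets of 5 arrays 1 array stood far from the other 4, where chance alone gives about 1 in 20. The values are normalised log2 signals unless said otherwise. On IPC_TRI array 5 the signal was far below the other arrays of its group for Klf4 (6.82), Egr1 (11.5), Hspa1a (10.6), Acadm (10.5), Cyp51 (5.77) and Pmp22 (6.88). On IPC_TRI array 5 the signal was far above the other arrays of its group for Cdkn1a (12.6). On IPC array 5 the signal was far below the other arrays of its group for Jun (12.6), Fos (13.5), Dnaja1 (12.6), Gpam (7.80) and Uck2 (6.79). On IPC array 5 the signal was far above the other arrays of its group for Col1a1 (13.5) and Cav1 (11.4). On IPC_TRI array 2 the signal was far below the other arrays of its group for Idh2 (14.6). On IPC_TRI array 3 the signal was far above the other arrays of its group for Il6 (10.2). On IPC array 3 the signal was far above the other arrays of its group for Mx2 (7.93). The beta-actin 3′ to 5′ log2 ratio of IPC array 3 was -0.12, below the other IPC arrays, and on IPC_TRI array 2 41.4% of the signal lay in the brightest 1% of probe sets, above the other IPC_TRI arrays.

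The change with test ischaemia differed from that without preconditioning, by limma's test of the difference itself, for 31 named genes. It was higher on the log2 scale for Klf4 (1.55), Egr1 (1.00), Atf3 (1.20), Ddit3 (1.22), Hspa5 (0.78), Rsad2 (1.60), Gbp2 (1.96), Mx2 (2.85), Cxcl10 (1.86), Vcam1 (1.59), Il6 (2.16), Cpt1a (1.64), Acadsb (2.69), Pdhb (1.82), Slc16a1 (1.90), Acadm (1.79), Adm (2.03), Plat (1.71), Fdft1 (2.99), Gpam (2.98), B4galt1 (2.69) and Slc25a14 (2.68). It was lower for Lif (-2.42), Gnai2 (-1.82), Cdo1 (-2.25), Serpina3l (-2.38), Dcn (-1.34), Notch1 (-0.80), Syt5 (-2.84), Sult2a2 (-2.10) and Kctd13 (-4.22). Of 32 alternatives the differences of Notch1, Egr1, Hspa5 and Kctd13 passed in 12, 16, 21 and 22. With the spike covariate 10 of the 31 differences passed and 21 did not. The change with test ischaemia differed from that after anesthetic preconditioning for Scd2 (1.91) and Uck2 (-1.69).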

How the results depend on the processing

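The count of 1228 probe sets in IPC against IPC_TRI fell to 526 with only the groups compared in the fit, to 794 with array weights and to 255 with the beta-actin ratio as a covariate, and leaving out 1 array gave 944 to 1362. The count of 460 in ISCH against CTL became 933 with array weights and 157 with the spike covariate, and 316 to 453 without 1 array. The count of 928 in APC against APC_TRI became 1518 with array weights and 614 with the beta-actin covariate, and 700 to 899 without 1 array. The 714 differences from the ISCH effect became 452 with only the groups compared, 70 with the spike covariate and 440 with the beta-actin covariate, and 510 to 883 without 1 array. The 5 differences from the APC effect became 2 with a pseudocount of 1, 3 with median centring, 8 with array weights, 1 without the filter, with values as deposited or with the replicate block, and 0 with only the groups compared, with the beta-actin covariate or without both arrays numbered 5. Leaving out 1 array gave 1 to 10, the highest without IPC_TRI array 5. The cause of these shifts was not tested. Of 106 named genes 95 passed in IPC against IPC_TRI, and 0 of these changed sign in an alternative. Among those that did not pass, Myh6, Nppb and Notch1 changed sign, reaching -0.32, 0.14 and -0.13. Of the 95, 48 passed in every alternative in which they were tested. For some of these, such as Rasl11b and G0s2, that was 21 of the 22 alternatives, since the stricter filter left them out. With the beta-actin covariate 46 were lost, with only the groups compared 15 and without IPC_TRI array 5 8. Those 8 were Vcam1 (-0.67), Pnck (-1.90), Cdkn1a (-1.10), Cyp51 (0.41), Col1a1 (0.66), Lum (0.61), Tpsab1 (-0.40) and Atp2a1 (-0.86). Without 1 of the other arrays, Cav1 and Slc25a14 were also lost, Cav1 in 5 cases and Slc25a14 in that without IPC array 1 (0.94). The medians of 22 of 32 lists moved in at least 1 alternative. Same-numbered arrays of IPC and IPC_TRI deviated together with correlations of 0.16, 0.07, 0.08, 0.03 and 0.14, so the numbers were not taken to pair the arrays, and the replicate block gave 1207 probe sets. All 5 correlations were above 0, and in each group 3 of 5 arrays correlated best with their own number, a hint of pairing from the data that the labels do not give. Changes of dim probe sets are limited by the pseudocount and the number of arrays.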
